A study of Mus musculus with 4 samples.

Results

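The genes described here are 54 genes of mitosis, the kinetochore and cytokinesis, given as a list of symbols and looked up among the 18804 genes of the deposited expression table. All 54 were found there. RNA-seq was performed on group 1 innate lymphoid cells (ILC1s) from mouse liver, with 2 libraries labelled Cd200r knockout (KO, replicates 1 and 2) and 2 labelled WT (replicates 1 and 3), all from mice aged 5 to 8 weeks at homeostasis. Cd200r is the gene of CD200R, a receptor that restrains myeloid and lymphoid cells, and the labels name no conditional driver for the knockout. The labels give no strain, sex or cell gates and do not say whether replicates are separate mice or pools, so every p-value reflects variation between 4 libraries that may be technical.

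Mitosis is entered when cyclin B and the kinase CDK1 become active, and it is carried through by Aurora and Polo-like kinases, by kinesin motors that build the spindle, and by kinetochores that hold chromosomes to microtubules. The spindle checkpoint holds back the anaphase-promoting complex (APC/C) until every chromosome is attached, after which cyclin B and securin are destroyed, sister chromatids part and cytokinesis separates the daughter cells. Transcripts of most of these genes are made in G2 and M phase and are low in resting cells. ILC1s are tissue-resident lymphocytes related to natural killer (NK) cells, and most of them are in a resting state in the healthy adult liver.

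Many promoters of such genes carry a cell cycle genes homology region (CHR), bound by the MuvB core of the DREAM and B-MYB complexes, and CCAAT boxes, bound by NF-Y. The stretches printed are the 170 bases before the annotated start of the 5 genes that rose in KO and have a CHR match upstream of the start, where it can be set beside their values. Capitals mark the CHR, searched as TTTGAA or TTCAAA, and the CCAAT box, searched as CCAAT or ATTGG, so that both strands were covered. In the printed stretches no CHR match overlapped a CCAAT box. The sequences are from RefSeq on GRCm38.p6, 5′ to 3′ on the gene's strand. The Cks1b stretch is chr3:89418292-89418461 on the minus strand. The Kif22 stretch is chr7:127042421-127042590 on the minus strand. The Ccnb2 stretch is chr9:70421555-70421724 on the minus strand. The Kif11 stretch is chr19:37376212-37376381 on the plus strand. The Ube2c stretch is chr2:164769759-164769928 on the plus strand.
Cks1b: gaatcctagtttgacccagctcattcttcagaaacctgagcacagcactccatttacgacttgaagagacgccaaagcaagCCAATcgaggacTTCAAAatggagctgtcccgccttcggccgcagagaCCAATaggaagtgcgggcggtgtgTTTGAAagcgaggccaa
Kif22: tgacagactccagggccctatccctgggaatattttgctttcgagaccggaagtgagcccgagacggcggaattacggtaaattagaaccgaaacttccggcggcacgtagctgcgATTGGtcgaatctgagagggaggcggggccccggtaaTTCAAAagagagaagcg
Ccnb2: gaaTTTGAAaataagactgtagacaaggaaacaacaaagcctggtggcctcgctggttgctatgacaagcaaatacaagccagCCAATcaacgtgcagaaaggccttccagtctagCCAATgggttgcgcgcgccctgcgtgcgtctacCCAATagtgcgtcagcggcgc
Kif11: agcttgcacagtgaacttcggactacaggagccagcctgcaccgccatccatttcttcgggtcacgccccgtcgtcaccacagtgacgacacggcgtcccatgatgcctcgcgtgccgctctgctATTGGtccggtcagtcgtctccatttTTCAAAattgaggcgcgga
Ube2c: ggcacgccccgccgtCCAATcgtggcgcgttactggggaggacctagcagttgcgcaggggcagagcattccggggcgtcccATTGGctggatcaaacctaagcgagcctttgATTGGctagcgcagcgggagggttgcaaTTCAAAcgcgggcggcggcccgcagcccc

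In Cks1b, a CHR match began at position -17 and another at position -77, where -1 is the base before the annotated start, with CCAAT boxes at positions -41 and -89. Kif22, Kif11 and Ube2c each had a CHR match close to the start, at positions -17, -19 and -29 in that order, with a CCAAT box further upstream at positions -54, -45 and -57. In Ccnb2, the printed CHR match was distant, at position -167, and a further match lay just after the start at position 5. Ccnb2 also carried 3 CCAAT boxes, at positions -87, -54 and -21. Promoters were found for 45 of the 54 genes. Between 100 bases before and 50 bases after the start, 31 of the 45 (68.9%) had a CHR match, against 9.23% of 27018 promoters of all genes. A CCAAT box was found in 62.2% of the 45, against 26.3% of all promoters, and both elements were found in 51.1%, against 2.22%. E2F sites (the 8 letters TTTGGCGC, TTTCGCGC, TTTCCCGC or TTTGCCGC, on either strand) were rarer, in 6.67% of the 45 and 1.45% of all promoters. Among the 12 genes with a promoter that rose in KO, 9 had a CHR match in that window, and among the other 33 genes 22 had one. These matches describe letters, not bound sites.

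**Figure D1:**
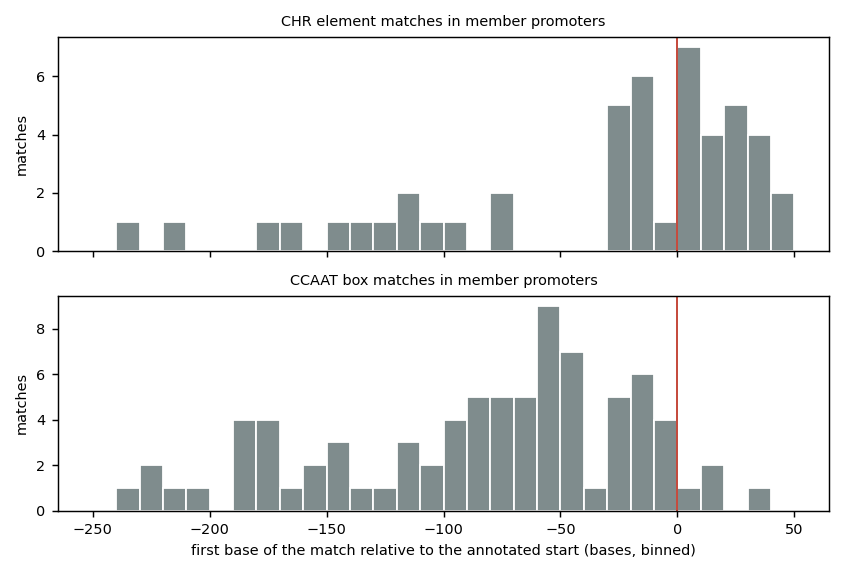
Number of CHR matches (upper panel) and CCAAT box matches (lower panel) by distance in bases from the annotated start (vertical line) in the promoters of the 45 mitosis genes with a promoter sequence, negative before the start. CHR matches gather within 30 bases upstream and 50 bases downstream of the start, and CCAAT boxes are most frequent in the 100 bases upstream.

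Mitosis transcripts were more abundant in the KO libraries than in the WT libraries. Values are FPKM, fragments counted per kilobase of gene and scaled to the library's total, and are given in the order replicates 1 and 2 for KO and replicates 1 and 3 for WT. The summed FPKM of the 54 genes was 399 and 428 in the KO libraries, against 218 and 229 in the WT libraries (413 ± 20.3 and 223 ± 7.66, SD, n = 2 each), a ratio of 1.85. Both KO sums lay above both WT sums. The genes nevertheless made up little of the RNA, 0.0780% and 0.0817% of all FPKM in KO and 0.0425% and 0.0443% in WT. A larger share of dividing cells and more of these transcripts per cell cannot be told apart in bulk RNA, nor can ILC1s and other cells in the sorted sample.

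Genes whose 4 libraries averaged 1 FPKM or more were tested with limma on log2(FPKM + 1), and a change was called at a Benjamini-Hochberg adjusted p under 0.05 over all 9476 genes tested. This scale understates the fold change of low genes. Of the 54 genes, 41 were tested and 13 fell below the filter. The last genes inside it were Kif23, Kif11 and Ncapg, with means of 1.07, 1.21 and 1.22 FPKM, and the next outside were Kif2c, Melk and Mki67, with 0.799, 0.749 and 0.660 FPKM. In KO, 16 of the 41 rose, whereas 2.4% of all genes tested rose. None fell, whereas 0.939% of all genes tested fell, and none was lower at an unadjusted p under 0.05 or with limma-voom on recovered reads. An unadjusted p under 0.05 was reached by 32 of the 41, all higher in KO, and by 1468 of the 9476. The log2 fold change, KO minus WT, was positive in 38 of the 41, with a median of 0.84, against a median of 0.00 and a positive value in 50.5% of all genes tested. Over all 54, both KO libraries lay above both WT libraries for 45 genes and below them for 2, whereas all genes above 0 did so in 18.9% and 18.4% of cases. For the tested genes as a whole the share with both KO libraries above was 24.3%. The filter weighs on this count, because 9 tested genes had a WT mean under 1 FPKM and passed through their KO values. Of these, 3 were called (Pbk, Kif11 and Kif23), and Ccna2, Cdk1, Tpx2, Bub1b, Nuf2 and Ncapg were not. Among the 32 tested when the WT mean itself had to reach 1 FPKM, a setting chosen after the data were seen, 12 rose. Of all 9410 genes tested under that setting, 149 rose. With no filter at all, none of the 54 nor any other gene passed the adjusted threshold in limma, although 34 of the 54 and 1898 of 18155 genes kept an unadjusted p under 0.05. With limma run without its mean-variance trend, 6 of the 41 passed. Without KO replicate 2 the count was 10, with 7 of the 16 lost. A fit that leaves out a library has 1 sample in that genotype, which is assumed to vary like the other genotype. Without KO replicate 1, the whole table gave 351 higher and 223 lower genes, and without WT replicate 1 it gave 56 lower genes.

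**Figure D2:**
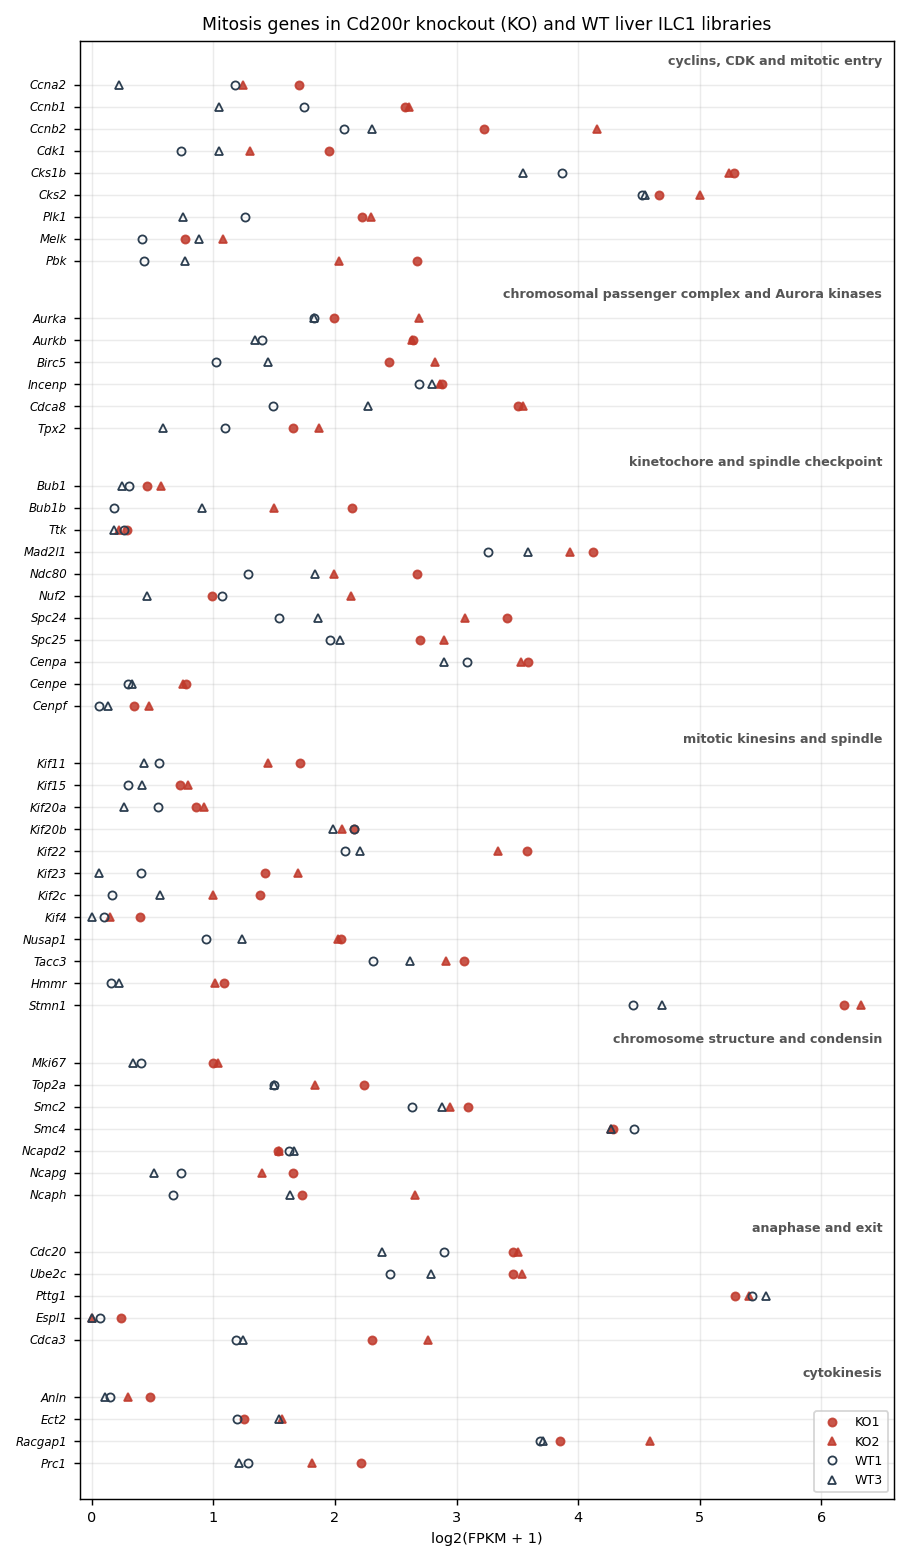
FPKM of each of the 54 genes in every library as log2(FPKM + 1) on the horizontal axis, grouped by role, with filled red symbols for KO replicates 1 (circle) and 2 (triangle) and open symbols for WT replicates 1 (circle) and 3 (triangle). Both KO symbols stand to the right of both WT symbols for 45 genes, among them Stmn1, Cks1b and Cdca8, while Pttg1 and Ncapd2 show the opposite order.

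Depth was even, at 39.0 to 41.2 reads per kilobase for 1 FPKM, and whole reads could be recovered for 52 of the 54 genes. Cd200r1 had 111 and 104 FPKM in KO and 162 and 173 FPKM in WT (log2 fold change -0.64, SE 0.09, limma adjusted p 0.00451). No source used here gives the deleted part of the gene, so reads outside it may remain and this level alone does not check the labels. All 12 ILC1 markers were detected in every library, at unlike levels. Cxcr6 lay between 948 and 1067 FPKM and Tbx21 between 253 and 263 FPKM. Itga1 lay between 32.8 and 53.0 FPKM, Il7r between 17.4 and 23.6 FPKM and Tnfsf10 between 14.1 and 24.0 FPKM. Marker lists of other cells moved with the genotype. Of 12 tested conventional NK cell markers 10 rose, or 5 with limma-voom, and their summed FPKM was 429 and 889 in KO against 207 and 186 in WT. Among the 10, Eomes and Cx3cr1 entered the test through their KO values, from WT means of 0.836 and 0.539 FPKM. Macrophage markers rose in 7 of 10, summing to 641 and 954 FPKM in KO and 246 and 225 FPKM in WT. Lyz2 alone made up most of these sums, with 527 and 771 FPKM in KO and 213 and 193 FPKM in WT. C1qb, 1 of the 7, had 38.2 and 52.6 FPKM in KO and 5.82 and 6.44 FPKM in WT. Adgre1, another, entered the test through its KO values from a WT mean of 0.854 FPKM. Clec4f, Vsig4 and Cd5l did not pass (limma adjusted p 0.294, 0.322 and 0.964), and Cd5l had a log2 fold change of -0.04. Marco, below the filter, was lower in both KO libraries than in both WT libraries. Timd4, also below it, was higher, at 0.234 and 1.93 FPKM in KO and 0 and 0.101 FPKM in WT. Erythroid markers fell in 7 of 8, summing to 12485 and 14028 FPKM in KO and 24712 and 26811 FPKM in WT, while the erythroid regulator Klf1 was at or near 0 in all 4 libraries. Neutrophil markers rose in 2 of 4 (Camp and Ngp), both of which entered the test through their KO values from WT means of 0.0428 and 0.154 FPKM. With limma-voom 1 neutrophil marker rose, but Camp, at 0 FPKM in WT replicate 1, had no recovered reads and was not in that fit. The whole list had a sum of 26.9 and 48.4 FPKM in KO and 18.9 and 8.28 FPKM in WT and the precursor gene Mpo at 0 throughout. ILC1 markers fell in 3 of 12 (Cd200r1, Gzmb and Gzmc) and summed to 7872 and 7736 FPKM in KO and 9539 and 9822 FPKM in WT. Cd200r1 is the gene targeted in the KO, so its fall is no measure of ILC1 content, and the other 9 markers did not pass. Gzmb alone gave 3090 and 2901 FPKM of the KO sums and 4226 and 4247 FPKM of the WT sums. Hepatocyte markers rose in 1 of 8 (Fgb) and summed to 486 and 506 FPKM in KO and 351 and 462 FPKM in WT. No T cell (0 of 7) or B and plasma cell (0 of 6) marker passed in limma or limma-voom, with 4 and 2 of them at an unadjusted p under 0.05. In KO replicates 1 and 2, the NK sums were 429 and 889 FPKM, the macrophage sums 641 and 954 FPKM and the mitosis sums 399 and 428 FPKM. Single mitosis genes differed between these replicates in either direction, such as Ccnb2 (8.37 and 16.8 FPKM) and Pbk (5.40 and 3.10 FPKM). The part of these cells in the mitosis result was not tested.

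**Figure D3:**
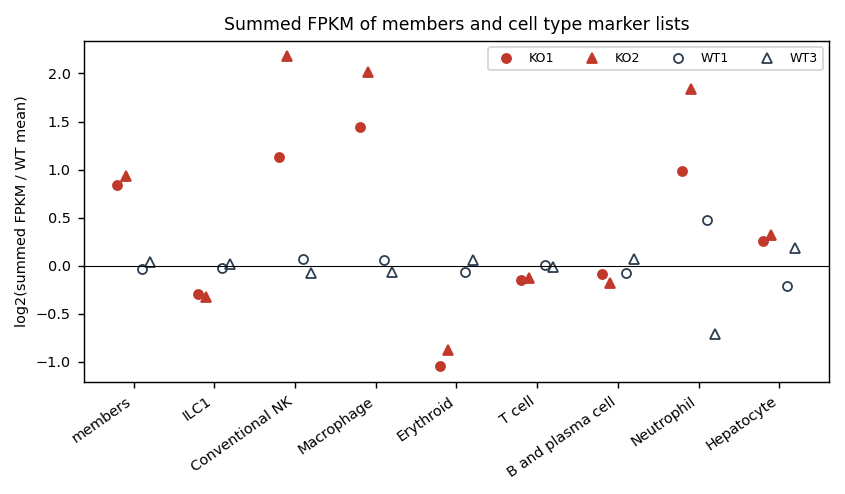
Summed FPKM of the 54 mitosis genes and of 8 cell type marker lists in each library, as log2 of the ratio to the WT mean, with filled red symbols for KO replicates 1 (circle) and 2 (triangle) and open symbols for WT replicates 1 (circle) and 3 (triangle). The mitosis sums of the KO libraries are 399 and 428 FPKM, and the conventional NK sums of the same libraries are 429 and 889 FPKM. The part of other cells in the mitosis sums was not tested.

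Most of the tested mitotic entry genes rose. Of 8 tested cyclins, CDK partners and entry kinases, 5 rose, with a median log2 fold change of 1.23, and the 9 genes summed to 90.4 and 101 FPKM in KO and 45.2 and 41.6 FPKM in WT. Cks1b (chr3:89415472-89418291), which encodes a small protein bound to cyclin-dependent kinases, had 37.8 and 36.7 FPKM in KO against 13.6 and 10.7 FPKM in WT, a log2 fold change of 1.55 (SE 0.15, limma adjusted p 0.000345). It was the most abundant gene of the group in KO, and the genotypes were well apart. Its close relative Cks2, the gene of the group with the highest mean over the 4 libraries, had 24.4 and 31.0 FPKM in KO and 22.0 and 22.4 FPKM in WT (log2 fold change 0.30, SE 0.14, limma adjusted p 0.357), the smallest difference of the group. Ccnb2 (chr9:70407689-70421554), a B-type cyclin, reached 8.37 and 16.8 FPKM in KO against 3.2 and 3.95 FPKM in WT (1.50, SE 0.27, limma adjusted p 0.0139), and the KO replicates differed more from each other than the WT replicates did. Ccnb1 (chr13:100778739-100786486), the main partner of CDK1, had 4.97 and 5.11 FPKM in KO against 2.36 and 1.06 FPKM in WT (1.20, SE 0.26, limma adjusted p 0.0301). Plk1 (chr7:122159435-122169884), the Polo-like kinase of centrosome maturation, had 3.66 and 3.92 FPKM in KO against 1.39 and 0.684 FPKM in WT (1.26, SE 0.24, limma adjusted p 0.0176). Here the spread lay among the WT libraries. Pbk (chr14:65805911-65817822), a mitotic protein kinase, gave a log2 fold change of 1.76 (SE 0.27, limma adjusted p 0.00551), the largest of the 41 on the log2(FPKM + 1) scale, with 5.40 and 3.10 FPKM in KO against 0.346 and 0.698 FPKM in WT. As a ratio of mean FPKM its fold was 8.14, below the 10.7 of Kif23. Both genes entered the test through their KO values, from WT means of 0.522 FPKM (Pbk) and 0.184 FPKM (Kif23).

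Cdk1 itself, at 2.87 and 1.47 FPKM in KO against 0.666 and 1.06 FPKM in WT, did not pass (limma adjusted p 0.208), nor did Ccna2, the cyclin of S and G2 phase, at 2.25 and 1.37 FPKM against 1.26 and 0.167 FPKM in WT (adjusted p 0.277). For both, the KO libraries lay above the WT libraries. Without WT replicate 1 the adjusted p of Ccna2 was 0.0280. Ccnb1 and Plk1 in turn rested on single libraries, with adjusted p 0.0655 and 0.0533 without KO replicate 2 and 0.153 and 0.0767 without WT replicate 3. Ccnb1, Pbk, Cks2 and, among the spindle genes, Stmn1 have processed pseudogenes of at least 95% identity over 200 bases or more, so how reads were shared between copies is uncertain. The same holds for Mad2l1, Ndc80, Mki67 and Racgap1. Melk, a kinase below the filter, overlapped between the groups, at 0.706 and 1.11 FPKM in KO and 0.335 and 0.845 FPKM in WT.

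The chromosomal passenger complex, which corrects faulty attachments and guides cytokinesis, differed between its subunits. Its kinase, survivin and borealin rose and its scaffold INCENP did not pass the test. Aurkb (chr11:69045624-69051664), the kinase, had 5.24 and 5.22 FPKM in KO against 1.63 and 1.53 FPKM in WT (log2 fold change 1.27, SE 0.20, limma adjusted p 0.00714), with hardly any spread within a genotype. Birc5 (chr11:117849237-117855743), which encodes survivin, had 4.45 and 6.08 FPKM in KO against 1.03 and 1.74 FPKM in WT (1.40, SE 0.24, limma adjusted p 0.0105). Cdca8 (chr4:124918465-124936917), which encodes borealin, was the most abundant of the 6 genes in KO, at 10.3 and 10.7 FPKM against 1.81 and 3.82 FPKM in WT (1.64, SE 0.25, limma adjusted p 0.00577). All 3 also passed in each fit with a single library left out. Incenp had 6.35 and 6.28 FPKM in KO against 5.48 and 5.94 FPKM in WT (0.13, SE 0.18, limma adjusted p 0.813). In FPKM, Incenp stood below borealin and above the other 2 subunits in KO, and above all 3 in WT. Aurka, the centrosome Aurora kinase, was uneven in KO, at 2.97 and 5.46 FPKM against 2.54 and 2.54 FPKM in WT (adjusted p 0.372). Its activator Tpx2 had 2.15 and 2.64 FPKM in KO against 1.13 and 0.503 FPKM in WT, with an adjusted p of 0.0833, or 0.0374 without WT replicate 1.

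At the kinetochore both KO libraries lay above both WT libraries for 9 of 11 genes, beside 18.9% of all genes above 0. Of the 11, 1 passed the test. All 7 tested genes had a positive log2 fold change and an unadjusted p under 0.05, and the median was 0.80. Over the whole table, 1468 of 9476 genes had an unadjusted p under 0.05, in either direction. Bub1b and Nuf2 entered the test through their KO values, from WT means of 0.508 and 0.734 FPKM. The 11 genes summed to 53.9 and 48.5 FPKM in KO and 24.2 and 27.7 FPKM in WT. The gene that rose, Spc24 (chr9:21755434-21760446), encodes a subunit of the NDC80 complex, which grips the microtubule, and had 9.65 and 7.39 FPKM in KO against 1.91 and 2.63 FPKM in WT (1.54, SE 0.22, limma adjusted p 0.00428). Its partner Spc25 had 5.48 and 6.45 FPKM in KO against 2.88 and 3.12 FPKM in WT, with an adjusted p of 0.0630, or 0.0445 without KO replicate 1. The other subunits Ndc80 (5.40 and 2.97 FPKM in KO, 1.43 and 2.58 FPKM in WT) and Nuf2 (0.989 and 3.38 FPKM in KO, 1.10 and 0.372 FPKM in WT) varied more between replicates, and Nuf2 overlapped between the groups. Without KO replicate 1, Nuf2 had an adjusted p of 0.0241.

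Mad2l1, the checkpoint protein MAD2, was the most abundant gene at the kinetochore, with 16.4 and 14.3 FPKM in KO against 8.59 and 11.0 FPKM in WT (0.60, SE 0.17, limma adjusted p 0.101). Bub1b, which encodes the checkpoint kinase BUBR1, had 3.41 and 1.82 FPKM in KO against 0.138 and 0.879 FPKM in WT (1.27, SE 0.30, limma adjusted p 0.0513). It lay just outside the threshold and passed without KO replicate 2 (0.0254) or WT replicate 3 (0.00371). The centromeric histone gene Cenpa had the smallest tested difference, at 11.0 and 10.5 FPKM in KO against 7.47 and 6.44 FPKM in WT (0.57, SE 0.17, limma adjusted p 0.123), with the groups still apart. The remaining 4 genes were below the filter. Cenpe, a kinetochore kinesin, had 0.715 and 0.684 FPKM in KO and 0.231 and 0.256 FPKM in WT, and Cenpf had 0.271 and 0.383 FPKM in KO and 0.0425 and 0.0993 FPKM in WT. Bub1 also lay higher in KO, at 0.368 and 0.483 FPKM against 0.239 and 0.189 FPKM in WT. Ttk, the checkpoint kinase MPS1, overlapped between the groups at 0.221 and 0.167 FPKM in KO and 0.199 and 0.137 FPKM in WT.

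**Figure D4:**
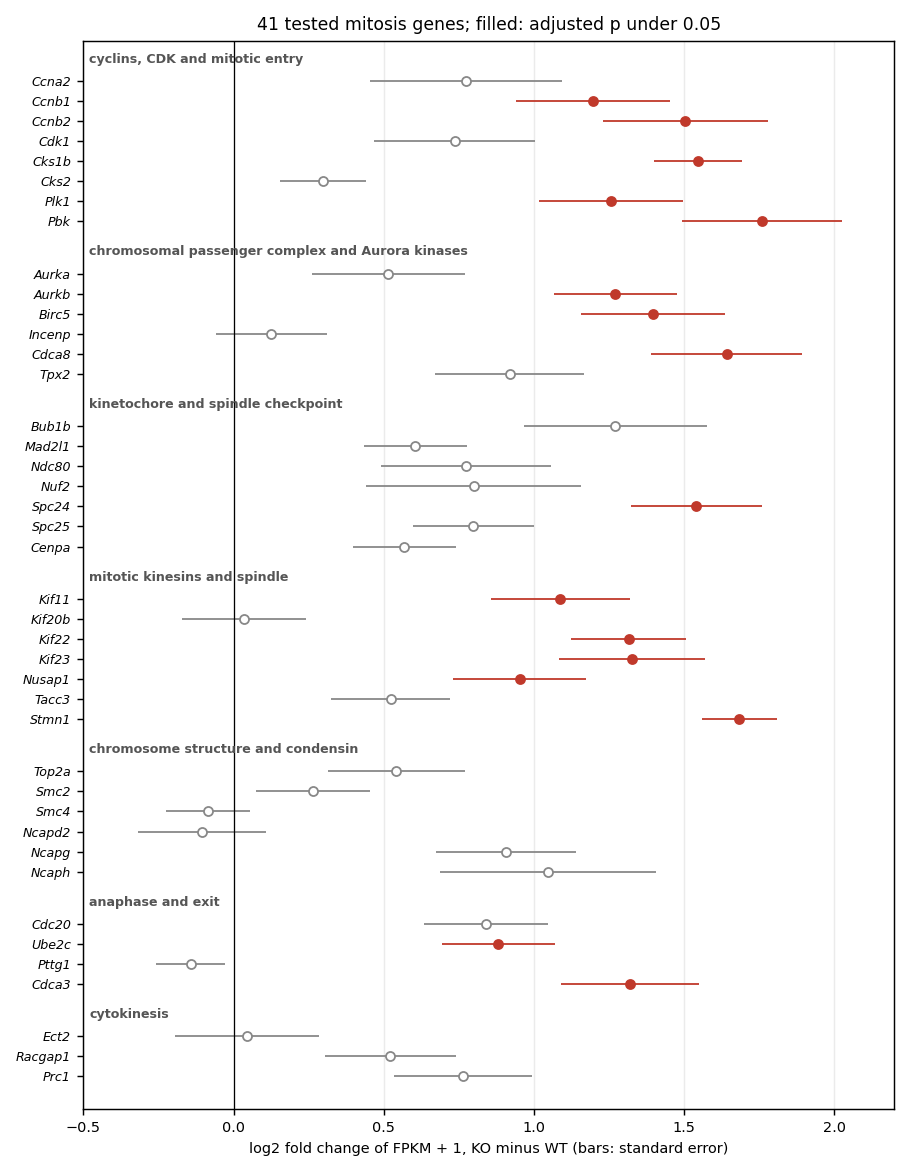
Log2 fold change of FPKM + 1, KO minus WT, for the 41 tested genes by role, with bars for the standard error from limma and filled red points for adjusted p under 0.05. The 16 filled points lie between 0.88 and 1.76, and the open points reach from -0.14 (Pttg1) to 1.27 (Bub1b).

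Spindle genes gave 5 rises among 7 tested, beside 2.4% of all genes tested. Kif11 and Kif23 entered the test through their KO values, from WT means of 0.408 and 0.184 FPKM. When the WT mean had to reach 1 FPKM, only Stmn1 and Kif22 of the 5 still rose. The role summed to 105 and 109 FPKM in KO, the highest sum of any role there. In WT it summed to 34.2 and 39.5 FPKM, and entry and anaphase genes summed higher. Stmn1 (chr4:134468320-134473843) supplied most of the role's sum. It encodes stathmin, which destabilises microtubules and also acts outside mitosis, and had 71.7 and 79.2 FPKM in KO against 20.9 and 24.9 FPKM in WT (1.68, SE 0.12, limma adjusted p 0.000111), the smallest p of the 41. Stmn1 made up 18.3% of the summed FPKM of all 54 genes in KO and 10.2% in WT, and without it that sum was 327 and 349 FPKM in KO and 197 and 204 FPKM in WT, a ratio of 1.69. Kif22 (chr7:127027729-127042467), a kinesin that pushes chromosome arms toward the metaphase plate, had 10.9 and 9.12 FPKM in KO against 3.23 and 3.62 FPKM in WT (1.32, SE 0.19, limma adjusted p 0.00471). Kif23 (chr9:61917277-61946810), the motor of centralspindlin at the midzone, had 1.68 and 2.24 FPKM in KO against 0.323 and 0.0444 FPKM in WT (1.33, SE 0.24, limma adjusted p 0.0140). The WT values rest on 44 and 6 reads, against 240 and 306 reads in KO. Kif11 (chr19:37376382-37421863), the motor that slides spindle poles apart, had 2.28 and 1.72 FPKM in KO against 0.467 and 0.350 FPKM in WT (1.09, SE 0.23, limma adjusted p 0.0290). Nusap1 (chr2:119618298-119650165), a microtubule bundling protein, had 3.14 and 3.08 FPKM in KO against 0.920 and 1.35 FPKM in WT and passed narrowly (0.95, SE 0.22, limma adjusted p 0.0452).

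Several of these calls depended on single libraries. Without KO replicate 2 the limma adjusted p was 0.0901 for Kif23, 0.0570 for Kif11 and 0.123 for Nusap1, and without KO replicate 1 it was 0.0977 for Kif11 and 0.0781 for Nusap1. Kif11 also missed without WT replicate 3 (0.0791) and Nusap1 without WT replicate 1 (0.263). Nusap1 further missed the threshold as TPM (0.0557), after quantile normalization (0.0646) and with limma-voom (0.0736). It also missed when the WT mean had to reach 1 FPKM. Stmn1 and Kif22 passed in each case. Kif20b had the smallest difference, with 3.46 and 3.15 FPKM in KO against 3.46 and 2.95 FPKM in WT (0.04, SE 0.21, limma adjusted p 0.959), and its sign varied between -0.05 and 0.12 when single libraries were left out. Tacc3, a spindle protein bound by Aurora A, had 7.35 and 6.53 FPKM in KO against 3.97 and 5.12 FPKM in WT (adjusted p 0.230). Below the filter, Hmmr, a spindle-assembly factor, had 1.12 and 1.02 FPKM in KO against 0.116 and 0.169 FPKM in WT, and Kif2c, a microtubule-depolymerising kinesin, had 1.61 and 0.992 FPKM in KO against 0.124 and 0.471 FPKM in WT. Kif15 (0.650 and 0.735 FPKM in KO, 0.227 and 0.330 FPKM in WT) and Kif20a (0.815 and 0.895 FPKM in KO, 0.462 and 0.204 FPKM in WT) were lower still. Kif4 stood at 0.316 and 0.112 FPKM in KO against 0.0701 and 0 FPKM in WT. The KO libraries lay above the WT libraries for all 5 of these low genes.

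Of the chromosome structure genes, 4 of 6 had a positive log2 fold change and 2 a negative value. None of the 6 passed in limma or limma-voom, 3 had an unadjusted p under 0.05, and the median log2 fold change was 0.40. Smc4, the condensin ATPase subunit shared by condensins I and II, was the most abundant at 18.6 and 18.2 FPKM in KO against 21.0 and 18.2 FPKM in WT (-0.08, SE 0.14, limma adjusted p 0.840). It also showed the smallest difference, and its sign varied between -0.18 and 0.01 when single libraries were left out. Its partner Smc2 had 7.52 and 6.70 FPKM in KO against 5.19 and 6.34 FPKM in WT (adjusted p 0.563). Of the condensin I subunits, Ncapd2 stood at 1.90 and 1.91 FPKM in KO against 2.08 and 2.17 FPKM in WT, below WT in both libraries, with an adjusted p of 0.871. Ncapg (2.15 and 1.64 FPKM in KO, 0.667 and 0.423 FPKM in WT, adjusted p 0.0693) and Ncaph (2.32 and 5.30 FPKM in KO, 0.588 and 2.09 FPKM in WT, adjusted p 0.178) lay above WT. Ncaph passed without KO replicate 1 (0.0224) or WT replicate 3 (0.0109). Top2a, the topoisomerase that untangles sister chromatids, had 3.73 and 2.58 FPKM in KO against 1.82 and 1.83 FPKM in WT (adjusted p 0.283). Mki67, whose protein is the usual proliferation marker Ki-67, was below the filter at 0.999 and 1.05 FPKM in KO against 0.325 and 0.263 FPKM in WT. Those values correspond to 422 and 427 reads in KO and 131 and 105 reads in WT over its long transcript.

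Of the anaphase genes, 2 of 4 tested rose. Ube2c (chr2:164769929-164772902), the ubiquitin-conjugating enzyme of the APC/C, had 10.0 and 10.6 FPKM in KO against 4.48 and 5.90 FPKM in WT (0.88, SE 0.19, limma adjusted p 0.0307). Its exons overlap Tnnc2 on the opposite strand, and the call was lost without KO replicate 2 (0.0700) or WT replicate 1 (0.212) and with limma-voom on recovered reads (0.175). Cdca3 (chr6:124829530-124833701), a substrate of the APC/C linked to mitotic entry, had 3.95 and 5.80 FPKM in KO against 1.28 and 1.37 FPKM in WT (1.32, SE 0.23, limma adjusted p 0.0111), or an adjusted p of 0.0540 without KO replicate 2. Cdc20, the APC/C activator restrained by the checkpoint, had 10.0 and 10.4 FPKM in KO against 6.44 and 4.24 FPKM in WT (0.84, SE 0.21, limma adjusted p 0.0567), or an adjusted p of 0.0178 without WT replicate 1. Pttg1, which encodes securin, was the most abundant gene of the group and had its smallest difference, at 38.0 and 41.3 FPKM in KO against 42.1 and 45.7 FPKM in WT (-0.14, SE 0.11, limma adjusted p 0.608). It was below WT in both KO libraries and did not pass the test. Espl1, the separase that securin restrains, was nearly undetected, at 0.184 and 0 FPKM in KO and 0.0510 and 0 FPKM in WT.

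No cytokinesis gene passed in limma or limma-voom, with 2 of the 3 tested at an unadjusted p under 0.05. Racgap1, the partner of Kif23 in centralspindlin, was the most abundant, at 13.4 and 23.1 FPKM in KO against 11.9 and 12.1 FPKM in WT (0.52, SE 0.22, limma adjusted p 0.280). KO replicate 2 was the high library. Set alone against both WT libraries, without KO replicate 1, it gave an adjusted p of 0.00651, with the spread taken from WT. Prc1, which bundles midzone microtubules, had 3.64 and 2.50 FPKM in KO against 1.43 and 1.32 FPKM in WT (adjusted p 0.121). Ect2, the exchange factor that activates RhoA at the cell equator, did not separate, at 1.39 and 1.96 FPKM in KO against 1.29 and 1.91 FPKM in WT (0.04, SE 0.24, limma adjusted p 0.958), and its sign varied between -0.13 and 0.22 when single libraries were left out. Anln, an actin-binding protein of the contractile ring, was below the filter with 0.392 and 0.230 FPKM in KO and 0.112 and 0.0764 FPKM in WT. Overlap with genes on the opposite strand could add reads to Ccna2, Kif20a, Kif4, Tacc3, Ncapg, Cdca8, Nusap1, Cdc20 and Prc1 as well, because the library kit does not mark the strand.

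Rises were also found among further mitosis genes and among S phase genes, to be set beside 2.4% of all genes tested. Of 29 tested further mitosis genes 3 rose, with a median log2 fold change of 0.32. They were Cdca5, which encodes the cohesion protector sororin, at 3.34 and 4.60 FPKM in KO against 1.39 and 0.283 FPKM in WT, Shcbp1 at 2.76 and 2.11 FPKM against 0.378 and 0.883 FPKM in WT, and Pmf1, a kinetochore subunit, at 50.3 and 47.0 FPKM against 33.5 and 31.7 FPKM in WT. Cdca5 and Shcbp1 entered the test through their KO values, and among the 20 genes with a WT mean of at least 1 FPKM 1 rose. The count was also 1 without KO replicate 2 or without WT replicate 3, and 0 without the mean-variance trend. Of 45 tested S phase genes 6 rose, with a median of 0.38, against 3 after quantile normalization and 2 without the mean-variance trend. Among them Tk1, the thymidine kinase, had 8.64 and 8.65 FPKM in KO against 3.03 and 2.31 FPKM in WT, and Rrm2, a ribonucleotide reductase subunit, had 21.6 and 17.5 FPKM in KO against 5.30 and 8.92 FPKM in WT. The helicase gene Mcm3 had 30.0 and 27.7 FPKM in KO against 19.5 and 18.2 FPKM in WT. Cdc6, also among the 6, entered the test through its KO values from a WT mean of 0.376 FPKM. With a WT mean of at least 1 FPKM, 5 of 41 S phase genes rose.

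Among 16 tested regulators of the MuvB and E2F families, only E2f1 rose, at 3.21 and 3.88 FPKM in KO against 0.369 and 0.604 FPKM in WT (1.61, SE 0.23, limma adjusted p 0.00407), and the median of the list was 0.12. E2f1 had a WT mean of 0.487 FPKM and entered the test through its KO values, so that no gene of the list rose among the 15 with a WT mean of at least 1 FPKM. Without KO replicate 1 the count was 2. Cdkn1a, which encodes the CDK inhibitor p21, rose as well, at 6.44 and 6.55 FPKM in KO against 2.21 and 1.41 FPKM in WT (1.43, SE 0.22, limma adjusted p 0.00577). It was joined in the list of 14 tested G1 regulators by Btg1, an antiproliferative gene, at 206 and 197 FPKM in KO against 158 and 148 FPKM in WT, and that list had a median of 0.05. Its rises became fewer without KO replicate 1, WT replicate 1 or WT replicate 3, and more without KO replicate 2. None of 17 APC/C subunits and none of 10 tubulins passed in limma or limma-voom, with 3 and 1 of them higher at an unadjusted p under 0.05 and medians of 0.06 and -0.03. Of 11 cohesin genes none passed in limma, Mau2, a cohesin loader, was lower at an unadjusted p under 0.05 and also fell with limma-voom, and the median was -0.15. In the Reactome term Mitotic Prometaphase, as annotated in the deposited table, the 127 tested genes outside the 54 had 2 rises (Cdca5 and Pmf1), no fall and a median near 0. In the wider Reactome term M Phase, the 280 tested genes outside the 54 had 6 rises, 1 fall and a median of 0.04. Of all genes tested, 2.4% rose and 0.939% fell.

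**Figure D5:**
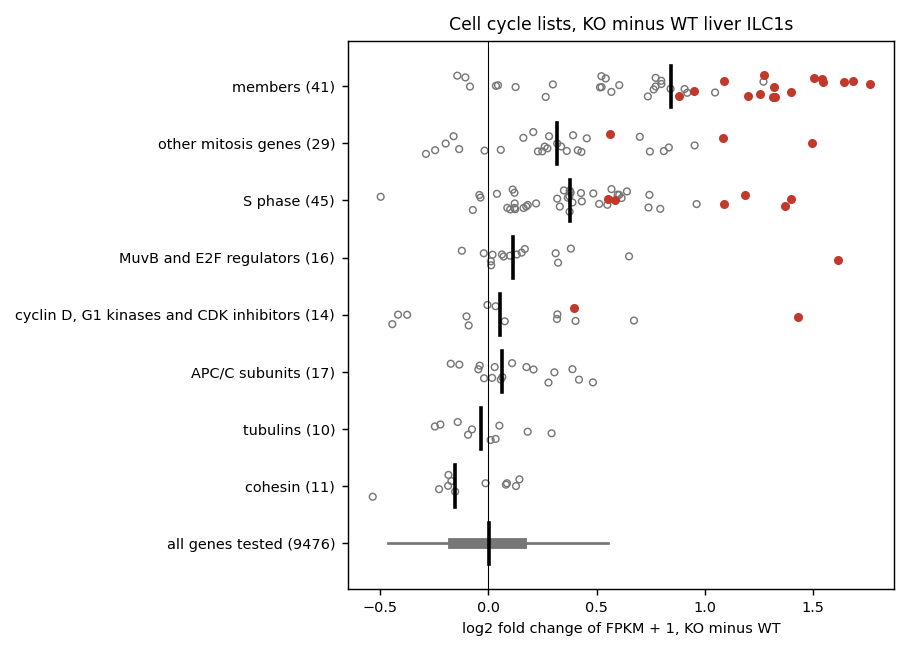
Log2 fold change of FPKM + 1, KO minus WT, of every tested gene in 8 cell cycle lists, with the number tested in brackets, filled red points for adjusted p under 0.05 and a black bar for the median. The bottom row gives the median, quartiles (thick) and the 5th to 95th percentile (thin) of all 9476 genes tested. The 41 mitosis genes have a median of 0.84, above those of S phase (0.38) and other mitosis genes (0.32), while cohesin and tubulin medians lie at or below 0.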

How the data were processed

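The authors deposited a single table of FPKM per gene, with no scaling between libraries stated. The submitters' processing notes name mm10 as the build and, in no stated role or order, HISAT2, fastp, DESeq2, HTSeq and R 3.2.0. Per the labels' protocols, TRIzol RNA was amplified full-length with a kit meant for single cells and made into libraries with a transposase kit, which does not mark the strand. Amplification can add spread beyond counting error. KO was compared with WT over all 4 libraries in limma 3.58.1 (R 4.3.3, two-sided, mean-variance trend, no covariate) on log2(FPKM + 1) for genes averaging 1 FPKM or more, with Benjamini-Hochberg adjustment over 9476 genes and a threshold of 0.05. The script was tested on simulated data. An exact permutation test of 2 against 2 libraries cannot go below p = 0.333. FPKM were whole multiples of a read's worth within 0.002 reads for 13056 of 13117 genes above 0 in every library (99.5%) and 9465 of the tested genes. The counted reads so recovered were 41164777 and 39493877 in KO and 39349312 and 38972600 in WT, and limma-voom on them called 170 genes higher and 94 lower. The median squared difference between replicates, over its counting variance, was 32.3 (KO) and 21.9 (WT) times that of counting noise alone. No replicate was therefore counted as a repeat of another. Coordinates and promoters are from RefSeq on GRCm38.p6, the assembly of mm10, in which all 54 genes matched and 45 had a promoter. The 54 genes, the other lists and the tests were chosen with earlier results of these data known. Genes were named by role: all that passed the test, and in each role the most abundant and the least changed, with up to 4 of the smallest p from each other list. Settings varied were the pseudocount, the filter, the scaling, the trend and each library left out. A filter of 0.2 FPKM, a filter on the WT mean and limma-voom were added after the data were seen. Of the other lists' genes, Knstrm, H2afx, Cdkn2a, Gata1, Trac and Ly6g were not used here.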

Additional observations from a re-analysis of the deposited data

How the results depend on the processing

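With 16 of 41 genes higher in KO under the main settings, the count was 0 of 54 with no filter, 8 of 17 at a mean of 5 FPKM or more and 6 of 41 without the mean-variance trend; the cause was not tested, except that the stricter filter tested fewer genes. It ranged from 10 to 18 when single libraries were left out, the lowest without KO replicate 2. Elsewhere it was 15 or 16 with pseudocounts of 0.1 and 5, 15 as TPM, after quantile normalization and after rescaling without haemoglobin and mitochondrial genes, 18 after median-of-ratios rescaling and, among settings chosen after seeing the data, 13 at 0.2 FPKM, 12 of 32 on the WT mean and 15 with limma-voom, 14 of these shared with the 16. None was lower in any of these settings. The median log2 fold change, 0.84, was 1.37 with a pseudocount of 0.1, 0.40 with 5 and 1.48 with limma-voom, since the pseudocount shrinks low genes. It was 0.77 with no filter, 0.60 at 5 FPKM or more, 1.01 as TPM, 0.79 both at 0.2 FPKM and on the WT mean, and 0.81 to 0.96 with single libraries left out. The ratio of sums, 1.85, stayed between 1.79 and 1.92 with single libraries left out. Signs reversed only for 3 genes near 0 when single libraries were left out: Kif20b (-0.052 to 0.12), Smc4 (-0.18 to 0.011) and Ect2 (-0.13 to 0.22). Stmn1, Cks1b, Spc24, Kif22 and Aurkb lost their call only with no filter, Aurkb being untested at 5 FPKM or more. Over the whole table, 227 higher and 89 lower genes became 57 and 13 without the trend and 151 higher at 5 FPKM or more, and ranged from 170 to 351 higher and 56 to 223 lower with single libraries left out, both highest without KO replicate 1. Each such fit has 1 sample in a genotype and takes its spread from the other.

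Depth limits the low genes, since 28 of the 54 stayed under 5 FPKM in every library and Kif23 rests on 6 reads in WT replicate 3. With 2 libraries a group, replicate spread, not counting error, sets the precision. No paired analysis was possible because the groups share only replicate number 1.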
